A study of Equus caballus with 16 samples.

Results

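Of the 686 equine miRNAs listed in the expression table, 6 were followed here because in human and mouse their genes lie in the HOX clusters: miR-10a, miR-10b, miR-196a, miR-196b, miR-615-3p and miR-615-5p. They were taken from the table by their names, a rule that uses no measured value, and described in all 16 libraries. Small RNA of extracellular vesicles from follicular fluid (FF-EVs) was sequenced to ask how the vesicle miRNAs of preovulatory follicles differ through the breeding year. The 4 groups were SAN, the spring transition in March with anovulatory dominant follicles, SOV, the start of the ovulatory season in April and May, SUM, the ovulatory season in June and July, and FOV, its final period in September. All fluids came from follicles of 30 to 35 mm in mares of a single breed aged 8 to 14 years. Follicles were ablated beforehand to start a new wave, and the labels give no treatment that differs between seasons. Each season had 4 libraries, and each library combined fluids of 2 to 3 mares. The methods count 19 mares, more than the design text gives, with 6 to 12 mares in each season, so that a mare may have given fluid in several seasons, and p-values here treat the libraries as independent. The library FOV_1 entered no comparison, because the study set it aside for its likeness to SAN in a principal component analysis. The comparisons thus used 15 libraries.

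HOX genes set the identity of body segments along the head-to-tail axis, and they lie in the genome as 4 clusters, A to D. In human and mouse, miR-10a lies beside HOXB4 and miR-10b beside HOXD4, miR-196a is made from the B and C clusters, miR-196b comes from the A cluster, and miR-615 lies within HOXC5. These miRNAs are transcribed together with their HOX neighbours, miR-196 is known to repress HOX mRNAs such as HOXB8, and tissues of the reproductive tract keep a regional HOX code in the adult. A miRNA binds its targets mainly through its seed, bases 2 to 8 from the 5′ end, and 2 miRNAs with 1 seed form a family with largely shared targets.

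The mature sequences are shown because both pairs differ by 1 base, which decides how well reads of the pair can be told apart, and because the miR-615 arms differ from the others in base composition. They were taken from the study's supplementary list of expressed miRNAs, in DNA letters, with the seed in capitals.
miR-10a: tACCCTGTagatccgaatttgtg
miR-10b: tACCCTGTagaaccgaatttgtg
miR-196a: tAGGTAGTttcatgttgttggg
miR-196b: tAGGTAGTttcctgttgttggg
miR-615-3p: tCCGAGCCtgggtctccctctc
miR-615-5p: gGGGGTCCccggtgctcggatc
miR-99a: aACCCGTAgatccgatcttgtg
miR-100: aACCCGTAgatccgaacttgtg

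Counted from 1 at the 5′ end, miR-10b differs from miR-10a by T12A and miR-196b from miR-196a by A12C, so each pair has 1 seed and differs only outside it. Among 282 miRNAs with a sequence, no other miRNA had the seed of miR-10 or of miR-196, and the seeds of the miR-615 arms were each found once. Reads of a pair are separated by that single base, and the number of mismatches allowed in assigning them is not given in the sources used here, so an exchange of reads within a pair was not tested. MiR-99a and miR-100, relatives of miR-10 with a different seed, differ from each other by T16A. The miR-615 arms were rich in G and C, at 68.2% for miR-615-3p and 77.3% for miR-615-5p, against a median of 47.6% over the 282 sequences and 40.9 to 45.5% for the other 4 members. The arms share a complementary run of 7 bases, bases 14 to 20 of miR-615-5p with bases 1 to 7 of miR-615-3p.

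Expression is given as CPM, a read count scaled to the size of its library and adjusted by the trimmed mean of M values (TMM). Every value was a whole number of reads times 1 factor for its library, so the reads behind it are known. Libraries held 27131 to 112146 reads assigned to miRNAs (median 51696) and 1 read stood for 7.91 to 35.6 CPM. A miRNA was fitted when its mean was above 10 CPM in at least 1 season, which 282 miRNAs were, all 6 members among them. MiR-615-5p passed only through SAN, where all its reads lie, so its tests are not read. Differences between seasons were tested in limma on log2(CPM + 1), as later minus earlier season, and a miRNA was called at a Benjamini-Hochberg adjusted p under 0.05 over the 282 miRNAs and a fold of at least 2. In fluid vesicles, fewer vesicles from a cell type and less of a miRNA per vesicle cannot be told apart. The granulosa marker list was low, with 4 of 5 markers read and a sum of 71.2 to 1765 CPM per library, while the mesenchymal list (miR-143, miR-145, miR-199a-3p and miR-214, 4 of 4 read) summed to 14616 to 304718 CPM.

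The members spanned 3 levels of abundance. MiR-10b ranked 3 to 9 among the miRNAs of each library and miR-10a ranked 5 to 19. MiR-615-3p ranked 29 to 154, miR-196b 78 to 237 and miR-196a 106 to 229. Over the 15 libraries, miR-10b had 35316 reads, miR-10a 23335, miR-615-3p 921, miR-196b 110, miR-196a 69 and miR-615-5p 3. Statements on miR-196a, miR-196b and miR-615-5p rest on few molecules.

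**Figure D1:**
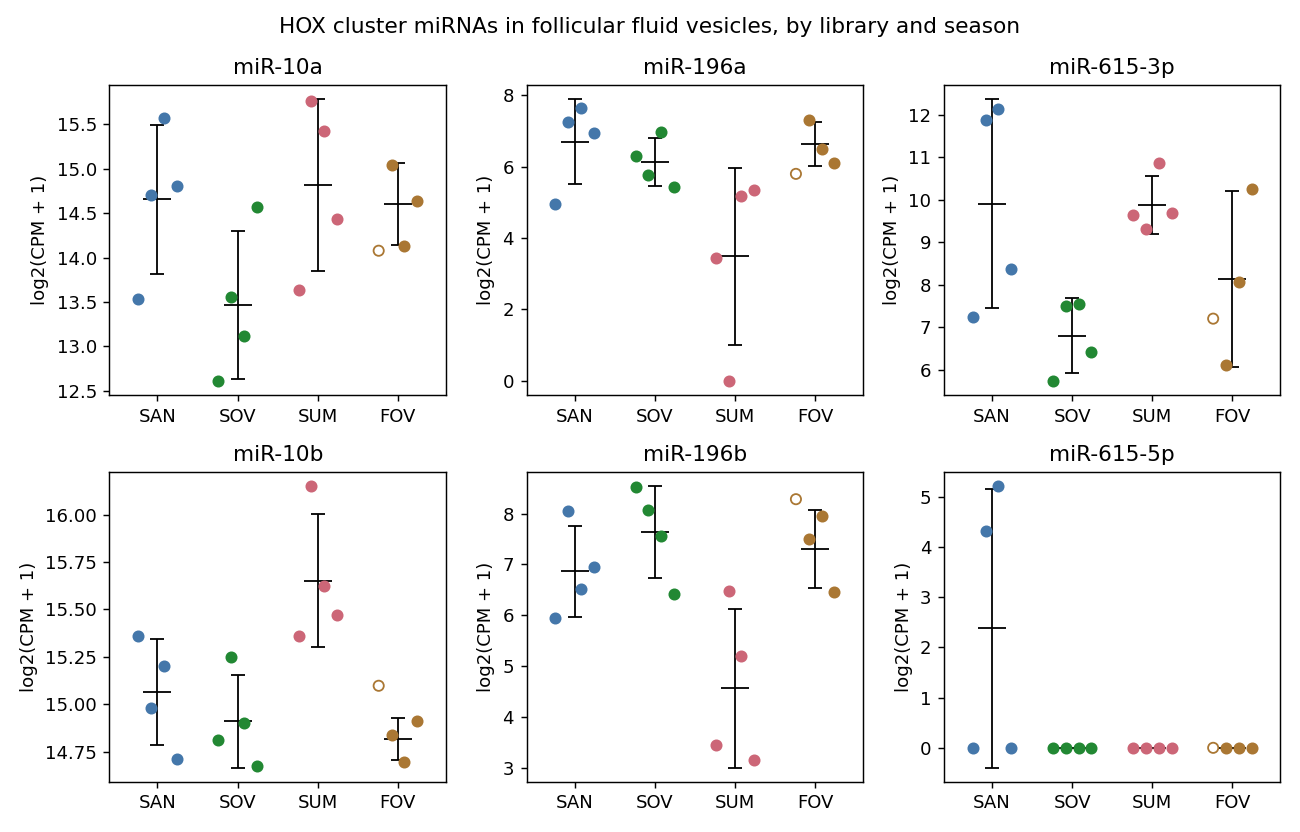
Level of each member as log2(CPM + 1) on the y axis, in the libraries of the 4 seasons on the x axis. Points are libraries in the order 1 to 4, bars are the mean ± SD of 4 libraries (3 in FOV), the open circle is FOV_1, which is outside the mean, and each panel has its own scale. The 4 SUM libraries of miR-10b lie above every library of the other seasons, and 3 of the 4 SUM libraries of miR-196b lie below every other library of that panel.

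MiR-10b, the most abundant member, was highest in SUM. Its 4 SUM libraries had 42049, 72803, 50435 and 45343 CPM. The other libraries had 41993, 32275, 37694 and 26850.1 CPM in SAN, 28770.2, 38927, 30615 and 26171 CPM in SOV, and 29306, 26538 and 30803 CPM in FOV. No library outside SUM reached a SUM library, although SAN_1 (41993 CPM) and SUM_1 (42049 CPM) were nearly level. The SUM mean was 52657 ± 13866 CPM, against 31121 ± 5514 for SOV, 34703 ± 6574 for SAN (SD, n = 4 each) and 28882 ± 2164 for FOV (n = 3). Ordered by mean, SUM stood first, followed by SAN, SOV and FOV, whose libraries overlapped one another.

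None of these differences was called. MiR-10b was 1.69-fold higher by means in SUM than in SOV (log2 FC 0.74, SE 0.27, 95% interval 0.17 to 1.32, limma adjusted p = 0.0686) and 1.52-fold higher in SUM than in SAN (log2 FC 0.59, SE 0.27, adjusted p = 0.170). FOV lay below SUM with a log2 FC of -0.84 (SE 0.30, 95% interval -1.46 to -0.21, adjusted p = 0.133). The intervals of the differences between the other seasons, from -0.87 to 0.53 in all, held 0. The difference in SUM has to be read against the scale, because SUM vs. SOV had a median log2 FC of 0.51 over all 282 miRNAs. Relative to that median, miR-10b stood 0.23 higher, and 0.24 higher under median-of-ratios scaling, where its log2 FC was 0.46 and the median 0.22. In SUM vs. SAN it stood 0.45 above the median of all miRNAs, and in FOV vs. SUM 0.98 below it.

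MiR-10a, with the same seed, varied much more within a season. It had 11838, 26763, 48853 and 28628 CPM in SAN, 6257, 12068, 8848 and 24280.2 CPM in SOV, 12681, 55796, 44024 and 22185 CPM in SUM, and 33654, 17878 and 25582 CPM in FOV. The highest library of a season had 4.13 times the lowest in SAN, 3.88 times in SOV, 4.40 times in SUM and 1.88 times in FOV. For miR-10b the same ratios were 1.56, 1.49, 1.73 and 1.16, lower in every season. With reads of 239 to 3773 per library for miR-10a, counting error was small beside this spread.

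SOV had the lowest mean of miR-10a, 12863 ± 7974 CPM, against 29020.5 ± 15208 in SAN, 33672 ± 19742 in SUM (SD, n = 4 each). FOV averaged 25705 ± 7889 CPM (SD, n = 3). The seasons overlapped in every pair, since SOV_4 (24280.2 CPM) lay among the other seasons and SAN_1 and SUM_1 among those of SOV. MiR-10a was 2.62-fold higher in SUM than in SOV by means, with a log2 FC of 1.35 (SE 0.51, 95% interval 0.28 to 2.43, adjusted p = 0.0711 in limma), which was not called. The limma adjusted p moved to either side with single libraries, being 0.0337 without SOV_4 and 0.0217 without SUM_1, but 0.227 without SOV_1 (log2 FC 1.07), 0.161 without SOV_3, 0.197 without SUM_2 (log2 FC 1.04) and 0.153 without SUM_3. It was 0.170 under median-of-ratios scaling (log2 FC 1.07), while edgeR gave 0.0398 and DESeq2 0.0877. The values for SOV vs. SAN (log2 FC -1.19, SE 0.51, adjusted p = 0.437) and FOV vs. SOV (log2 FC 1.14, SE 0.55, adjusted p = 0.219) did not pass either. SAN, SUM and FOV differed from one another by log2 FCs of -0.21 to 0.16, each with an interval that held 0.

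Together the miR-10 pair took a sizeable part of the sequenced miRNA. It held 4.80 to 8.52% of the reads in SAN, 3.25 to 5.17% in SOV, 5.23 to 13.4% in SUM and 4.82 to 7.07% in FOV. SUM had the highest mean share, 9.03 ± 3.43%, and SOV the lowest, 4.37 ± 0.866% (SD, n = 4 each), and every SUM library lay above every SOV library. SUM_2 had the highest share of any library, 13.4% (exact 95% interval 13.1 to 13.6%), and SOV_1 the lowest, 3.25% (3.08 to 3.42%). These intervals cover counting error only, as reads are not independent molecules. The other 4 members held 0.0207 to 0.479% of a library.

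**Figure D2:**
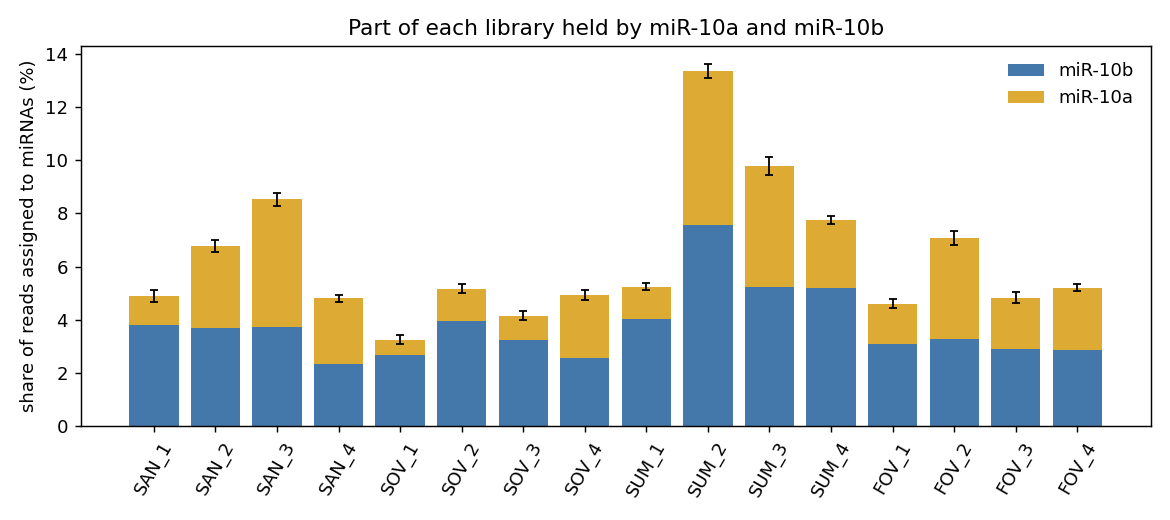
Share of the reads assigned to miRNAs, in percent on the y axis from 0, that miR-10b (blue) and miR-10a (yellow) held in each of the 16 libraries on the x axis, with exact 95% intervals of the sum. SUM_2 stands highest at 13.4% and SOV_1 lowest at 3.25%.

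The balance within the pair does not depend on scaling between libraries. MiR-10b had 3.55, 1.21, 0.772 and 0.938 reads for each miR-10a read in SAN, 4.60, 3.23, 3.46 and 1.08 in SOV, 3.32, 1.30, 1.15 and 2.04 in SUM, and 0.871, 1.48 and 1.20 in FOV. MiR-10b therefore led in all 4 libraries of SOV and of SUM, in 2 of 4 in SAN and in 2 of 3 in FOV. The mean log2 ratio was 0.41 ± 0.98 in SAN, 1.45 ± 0.92 in SOV, 0.84 ± 0.70 in SUM (SD, n = 4 each). In FOV it was 0.21 ± 0.39 (SD, n = 3). In SOV 3 libraries, and besides them SAN_1 and SUM_1 had a ratio above 3, and these are the libraries with the least miR-10a.

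The nearest relatives of miR-10 outside the HOX clusters, miR-99a, miR-99b and miR-100, are named as the miR-10 superfamily and are known as repressors of mTOR. In SUM vs. SAN, 2 of the 3 fell and none rose, where 9.57% of all 282 miRNAs were called, 4.26% higher and 5.32% lower. MiR-100 had a log2 FC of -1.35 (SE 0.34, adjusted p = 0.0259) and miR-99a of -1.18 (SE 0.34, adjusted p = 0.0475), and miR-99b did not pass (log2 FC -0.79, adjusted p = 0.125). In FOV vs. SUM, where 3.55% of all miRNAs were called, miR-100 rose with a log2 FC of 2.17 (SE 0.36, adjusted p = 0.000888), and the other 2 did not pass. The remaining 4 comparisons called none of the 3, and SUM vs. SOV gave log2 FCs of -0.94, -0.40 and -0.90 for miR-99a, miR-99b and miR-100. The 2 comparisons with calls share the SUM libraries. Of 28 alternatives, all kept the call of miR-100 in FOV vs. SUM and 26 its call in SUM vs. SAN, lost in limma without SAN_1 (adjusted p = 0.0513) and without SUM_4 (adjusted p = 0.0684). The call of miR-99a was kept by 13 of 28, with a limma adjusted p of 0.0875 when SUM and SAN were fitted alone and 0.113 in edgeR, and it was lost without any single SAN library, SUM_2 to SUM_4, SOV_1 to SOV_3, FOV_2 or FOV_3. The 3 relatives summed to 163418 CPM in SUM_1, within the 154930 to 213121 CPM of SAN, and to 53462 to 77311 CPM in the other SUM libraries.

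Within libraries, miR-10b stood further above miR-100 in SUM than in the other seasons. For each miR-100 read there were 5.34, 8.73, 7.19 and 7.10 miR-10b reads in SUM. The other libraries had 1.63, 1.86, 2.26 and 1.63 in SAN, 2.24, 3.54, 2.97 and 1.08 in SOV, and 0.696, 0.600 and 1.59 in FOV. Every SUM library lay above all others, and FOV_1, outside the comparisons, had 3.66. Against miR-99a the ratios were 0.277, 1.30, 1.15 and 0.663 in SUM. They were 0.139 to 0.249 in SAN, 0.177 to 0.262 in SOV and 0.309 to 0.332 in FOV, so that SUM_1 lay among the other seasons and only SUM_2 and SUM_3 had more miR-10b than miR-99a. These ratios were chosen after the values of the relatives were seen and are given as a description.

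**Figure D3:**
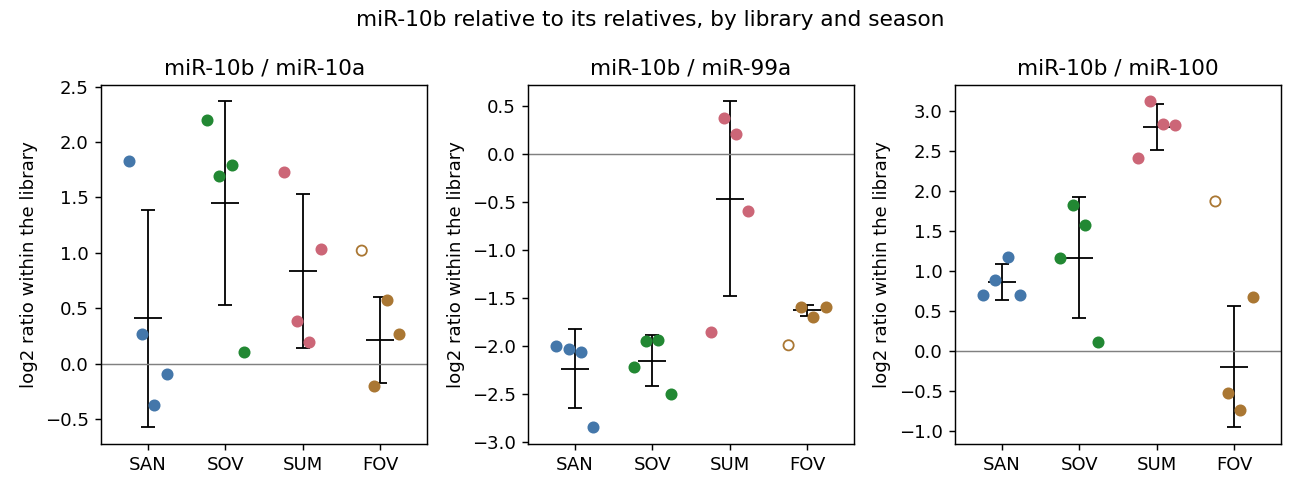
Log2 ratio of miR-10b to miR-10a, miR-99a and miR-100 within each library on the y axis, by season on the x axis. Points are libraries, bars the mean ± SD of 4 libraries (3 in FOV), the open circle is FOV_1 and the grey line marks equal reads. The ratio to miR-100 lies between 2.42 and 3.13 in SUM, above all other libraries.

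MiR-196b fell in SUM relative to SOV, the largest fall among the members in that comparison. It had 9.91, 88.7, 35.6 and 7.91 CPM in SUM, against 366, 269, 187 and 85.0 CPM in SOV. These values stand for 9 reads in SUM (exact 95% Poisson interval 4.12 to 17.1) and 42 reads in SOV (30.3 to 56.8). SUM_2 held 6 of the 9 reads and lay just above SOV_4, the only overlap. By means SUM had 35.5 CPM and SOV 227 CPM, 6.38-fold more, and limma gave a log2 FC of -3.07 (SE 0.88, 95% interval -4.92 to -1.23, adjusted p = 0.0199). In the same comparison the median of all miRNAs moved the other way, by 0.51.

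Without SUM_2 the mean of SOV was 12.7-fold that of SUM (log2 FC -3.71, limma adjusted p = 0.00980).

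The call depends on single libraries. The adjusted p of limma was 0.0724 without SOV_1, 0.0551 without SOV_2, 0.0598 without SUM_4 and 0.0581 when SUM and SOV were fitted alone, and it lay between 0.00401 and 0.0724 over the 28 alternatives. Markers of other cell types moved with it. The 4 mesenchymal markers summed to 14616 to 32412 CPM in SUM, against 180668 to 304718 in SOV, with 148196 to 189227 in SAN and 85065 to 170513 in FOV. The 2 endothelial markers (miR-126-3p and miR-126-5p) summed to 2222 to 6965 CPM in SUM, against 8858 to 11807 in SOV. With 5652 to 9083 CPM in SAN and 4564 to 10101 CPM in FOV, the endothelial sum overlapped with SUM in both. No marker of these lists was at 0 over a season, and their part in the fall of miR-196b was not tested.

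The other seasons placed miR-196b above SUM as well, without a call. It had 60.6, 266, 90.9 and 123 CPM in SAN and 181, 246 and 86.9 CPM in FOV. The log2 FC was -2.30 in SUM vs. SAN (SE 0.88, adjusted p = 0.0973) and 2.73 in FOV vs. SUM (SE 0.95, adjusted p = 0.122). With FOV_1, which had 311 CPM, kept in the fit, FOV vs. SUM gave 2.98 and an adjusted p of 0.0472. SAN, SOV and FOV differed by log2 FCs of -0.34 to 0.77, all with intervals that held 0.

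MiR-196a, with the same seed, was also lowest in SUM, though on fewer reads and without a call. Its SUM libraries had 9.91, 0, 35.6 and 39.5 CPM, from 1, 0, 1 and 5 reads. It had 30.3, 152, 200 and 123 CPM in SAN, 78.5, 53.7, 125 and 42.5 CPM in SOV, and 159, 89.3 and 67.6 CPM in FOV. SUM did not overlap with SOV or with FOV, and it overlapped with SAN through SAN_1, a library with 1 read. The 0 of SUM_2 allows up to 44.4 CPM there, the worth of 3 reads, which is above the value of SOV_4, so the lack of overlap with SOV is within counting error. The log2 FC was -3.21 in SUM vs. SAN (SE 1.15, 95% interval -5.63 to -0.79, limma adjusted p = 0.0750), -2.63 in SUM vs. SOV (SE 1.15, adjusted p = 0.129) and 3.14 in FOV vs. SUM (SE 1.24, adjusted p = 0.187). These fitted changes rest largely on SUM_2, the library with no read. Without it the log2 FC was -2.04 in SUM vs. SAN (limma adjusted p = 0.175), -1.46 in SUM vs. SOV (adjusted p = 0.309) and 1.98 in FOV vs. SUM (adjusted p = 0.380). With a pseudocount of 5 CPM it was -2.52, -1.95 and 2.44. By means, SUM had 0.169 times the SAN level and 0.284 times the SOV level, and FOV had 4.94 times the SUM level.

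Summed over a season, miR-196b had 31 reads against 30 of miR-196a in SAN, 42 against 14 in SOV, 9 against 7 in SUM and 28 against 18 in FOV. MiR-196b led in every library of SOV, with 3 reads for each read of miR-196a in all, and in every library of FOV. In SAN the order of the pair differed between libraries, and 7 to 9 reads in SUM give no order.

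The let-7 family, growth repressors that define differentiated cells, holds the 7-base run of the miR-196 seed moved along by 1 position. The run starts at base 3 in 5 of 6 let-7 sequences and in miR-98, and at base 2 in miR-196. Let-7c was called lower in SUM vs. SAN (log2 FC -1.36, limma adjusted p = 0.0168) and in FOV vs. SAN (log2 FC -1.60, adjusted p = 0.0213), and let-7f in SUM vs. SOV (log2 FC -1.13, adjusted p = 0.0101). Each is 1 of 6 family members, where all miRNAs were called at 9.57%, 0.709% and 17.7% in those comparisons. Over 28 alternatives the call of let-7c was kept by 27 in SUM vs. SAN and by 22 in FOV vs. SAN, and that of let-7f by 27. Those of let-7c were lost in SUM vs. SAN without SUM_4 (limma adjusted p = 0.0559) and in FOV vs. SAN without SAN_2 (0.0889), SAN_3 (0.0668) or FOV_2 (0.0759). The call in FOV vs. SAN was also lost in limma under equal totals (adjusted p = 0.0541) or with the compared seasons alone (0.0593), and in edgeR (0.0554). That of let-7f was lost in edgeR, where the log2 FC was -0.98. The other comparisons called no member of the family, and none was called higher.

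MiR-615-3p rose in SUM relative to SOV. It had 793, 636, 1852 and 823 CPM in SUM, against 52.4, 179, 187 and 85.0 CPM in SOV, from 279 and 25 reads. Every SUM library lay above every SOV library, with a gap from 187 to 636 CPM. MiR-615-3p rose 8.15-fold by means in SUM vs. SOV, with a log2 FC of 3.07 (SE 0.99, 95% interval 0.98 to 5.16, limma adjusted p = 0.0356). It stood 2.56 above the median of all miRNAs in that comparison on the log2 scale.

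This call also rests on single libraries and on the scaling. The limma adjusted p was 0.120 without SOV_1, 0.0829 without SOV_4, 0.0914 without SUM_3, 0.0626 without SUM_4, 0.0620 under median-of-ratios scaling (log2 FC 2.79) and 0.0537 under robust moderation. Over all 28 alternatives the log2 FC stayed positive and the adjusted p lay between 0.00446 and 0.120. Markers of other cell types differed between the same libraries. The liver marker miR-122 had 7181 to 9450 CPM in SUM, against 602 to 4100 CPM in SOV, and the mesenchymal sum was 14616 to 32412 CPM in SUM, against 180668 to 304718 CPM in SOV, neither with overlap. In the other seasons miR-122 had 2851 to 4663 CPM (SAN) and 1200 to 14664 CPM (FOV). The part of these markers in the rise of miR-615-3p was not tested.

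In SAN and FOV the libraries of 1 season disagreed. SAN had 151, 3744, 4489 and 331 CPM, a 29.7-fold range, and SAN_2 and SAN_3 held 444 of its 476 reads. FOV had 67.9, 268 and 1216 CPM, a 17.9-fold range, with 126 of its 141 reads in FOV_4. Within SOV and SUM the ranges were 3.57-fold and 2.91-fold. The mean of SAN, 2179 ± 2259 CPM (SD, n = 4), was 17.3-fold that of SOV, 126 ± 67.4 CPM (n = 4), yet the seasons overlapped through SAN_1. The log2 FC of SOV vs. SAN was -3.11 (SE 0.99, 95% interval -5.19 to -1.02, adjusted p = 0.196 in limma), with an adjusted p of 0.0407 without SAN_1 and 0.0118 in DESeq2, but 0.601 without SAN_2 (log2 FC -2.45) and 0.721 without SAN_3 (log2 FC -2.36). In that comparison limma called 0 of 282 miRNAs, 31 had an unadjusted p under 0.05, and edgeR and DESeq2 called 0 and 1. The other comparisons of miR-615-3p did not pass, with log2 FCs of -0.04 in SUM vs. SAN (adjusted p = 1.0), -1.77 in FOV vs. SAN (adjusted p = 0.416), 1.34 in FOV vs. SOV (adjusted p = 0.445) and -1.73 in FOV vs. SUM (adjusted p = 0.431). The sizes of the FOV comparisons were set by FOV_2 and FOV_4. Leaving out FOV_2 or FOV_4 gave -0.75 or -2.82 in FOV vs. SAN, 2.36 or 0.29 in FOV vs. SOV and -0.71 or -2.78 in FOV vs. SUM.

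The share of reads from other GC-rich miRNAs also differed between SUM and SOV. Besides the miR-615 arms, 34 miRNAs had a GC content of at least 60%, miR-486-5p, miR-423-3p and miR-99b being the most abundant. They held 2.04 to 8.19% of the reads in SUM and 2.04 to 2.24% in FOV, against 0.716 to 1.48% in SOV. In SAN they held 2.2 and 2.6% in SAN_2 and SAN_3, the libraries with much miR-615-3p, and 1.08 and 0.811% in SAN_1 and SAN_4, the libraries with little. FOV_2 and FOV_3 had a similar share with 67.9 and 268 CPM of miR-615-3p, and SUM_2, with the highest share, had the least miR-615-3p of SUM. The mean GC content of all reads did not separate the seasons, at 43.7 to 46.0% in SUM, against 43.9 to 44.7% in SOV, and within SUM it was lowest in SUM_3, the library with the most miR-615-3p there. In SAN it was 45.3 and 45.5% in SAN_2 and SAN_3, against 43.7 and 44.1% in SAN_1 and SAN_4. Among the 34, the erythrocyte marker miR-486-5p had 8099 to 67154 CPM in SUM, against 1754 to 6410 CPM in SOV. The 67154 CPM were those of SUM_2, out of 963017 CPM in that library, so most of its share came from this 1 miRNA. MiR-423-3p had 4310 to 6285 CPM in SUM, against 1126 to 2721 CPM in SOV, and miR-99b overlapped between these seasons. The part of base composition, or of miR-486-5p, in the differences of miR-615-3p was not tested. The comparison was added after the values were seen.

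**Figure D4:**
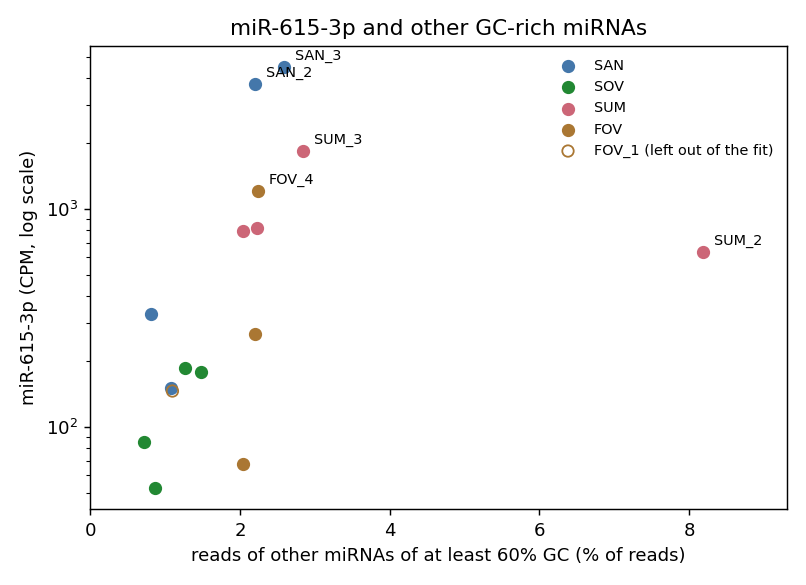
MiR-615-3p in CPM on a log y axis against the percentage of reads that the 34 other miRNAs with at least 60% GC held on the x axis, for each library, coloured by season, with FOV_1 as an open circle. The SOV libraries lie at the lower left with up to 187 CPM and 1.48%, and SAN_2 and SAN_3 lie highest. SUM_2 stands apart at 8.19%, most of which is miR-486-5p.

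MiR-615-5p, the other arm of the same hairpin, was almost absent. It had 1 read in SAN_2 (19 CPM) and 2 reads in SAN_3 (36 CPM), and no read in the other 14 libraries. The 2 libraries with a read were those with the most miR-615-3p. There miR-615-5p made up 0.671% of the reads of both arms (3 of 447, exact 95% interval 0.139 to 1.95%). In the 14 others, 0 reads beside 485 of miR-615-3p allow a share of up to 0.619%. This limit lies within the interval of the 2 libraries, so a lower 5p share cannot be told from an equal one at this depth. No test of this arm between seasons is read, since SAN alone carried it past the filter and the other pairs of seasons had no read to compare.

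Over all pairs of seasons, calls of members came only from SUM vs. SOV. There 2 of the 5 members other than miR-615-5p were called, miR-615-3p higher and miR-196b lower, where 17.7% of the 282 miRNAs were called, 12.1% higher and 5.67% lower. None of the 5 was called in SUM vs. SAN (9.57% of all miRNAs called), FOV vs. SAN (0.709%), FOV vs. SOV (2.84%) or FOV vs. SUM (3.55%). An F test over the 4 seasons called none of the 5, against 13.8% of all miRNAs, with adjusted p of 0.0620 for miR-196b, 0.0754 for miR-615-3p, 0.131 for miR-10b, 0.148 for miR-196a and 0.193 for miR-10a in limma. Seasons did not overlap for 3 of these 5 members in SUM vs. SOV (21.6% of all miRNAs), 2 of 5 in FOV vs. SUM (15.6%) and 1 of 5 in SUM vs. SAN (17.0%), and they overlapped for all 5 in the other 3 pairs (2.13% in SOV vs. SAN, 12.4% in FOV vs. SAN and 18.8% in FOV vs. SOV). With 5 members these counts are too few to set apart from those shares.

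**Figure D5:**
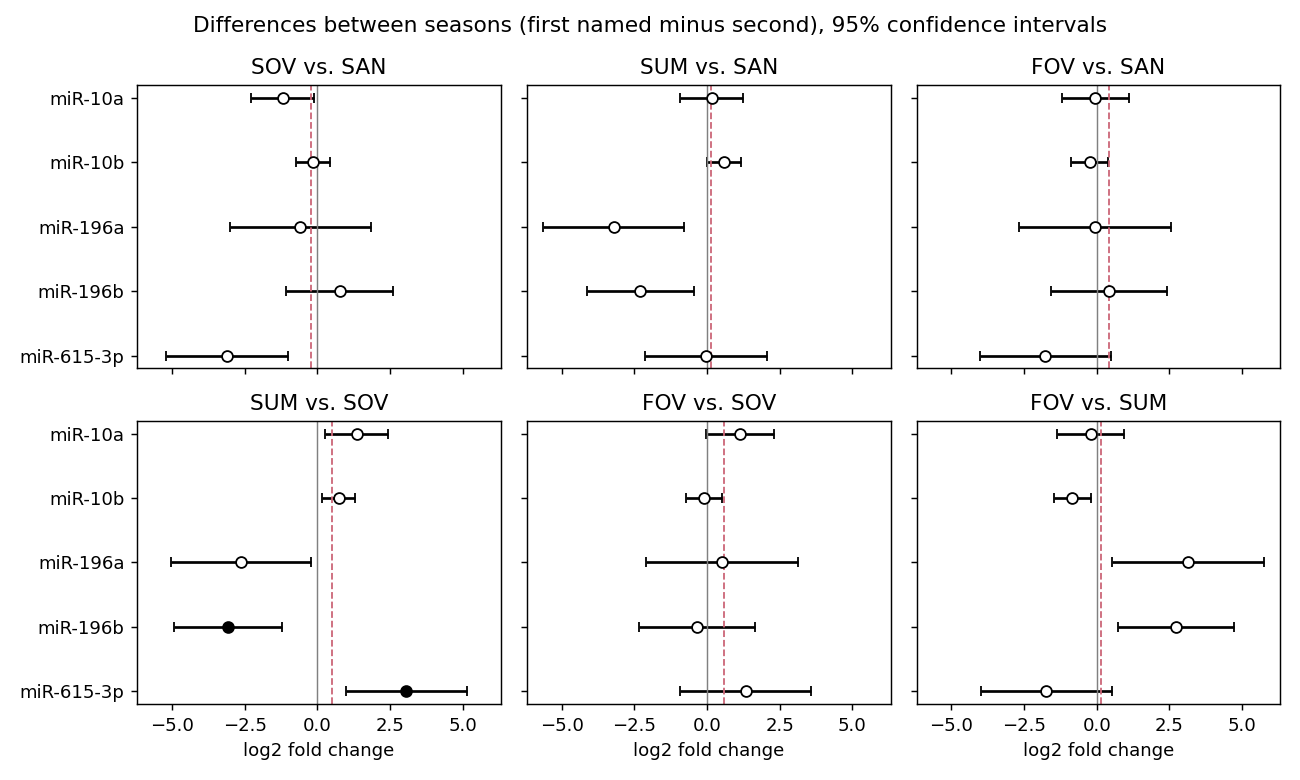
Log2 fold change on the x axis of 5 members, on the y axis, in the 6 comparisons of seasons, as first named minus second, with 95% intervals from limma. Filled points were called, open points were not, the grey line is 0 and the dashed line is the median of all 282 miRNAs. Only miR-196b (-3.07) and miR-615-3p (3.07) in SUM vs. SOV are filled, and the intervals of miR-10b are the narrowest.

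The correlation within a family was modest over the 15 libraries. Pearson's r on log2(CPM + 1) was 0.37 for miR-10a with miR-10b and 0.41 for miR-196a with miR-196b. Spearman's rho was 0.25 and 0.61. The miR-196 pair gave an r of 0.54 without SUM_1 and SUM_2, and of -0.27 once season means were removed. MiR-10b and miR-196a ran in opposite directions (r = -0.79, and -0.59 within seasons), but r was -0.51 without SUM_2 and SUM_3, and SUM_2 had no read of miR-196a. These values share the 15 libraries and their scaling, so they are a description. Those of miR-196 carry counting error from few reads, which can lower r, so they do not settle whether that pair varies together.

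The miRNAs named next were those with the highest r with each member, so their high values follow in part from that choice. They are not set against the r of a family pair. Among 138 miRNAs with a mean above 100 CPM, the levels of miR-222 (r = 0.81, 0.79 within seasons), miR-200a (0.73) and miR-128 (0.64) were most like those of miR-10a. For miR-10b these were miR-125a-5p (0.80), miR-486-5p of red blood cells (0.73) and miR-323-3p (0.69), and leaving out SUM_2 and SUM_3 lowered the values to 0.57, 0.39 and 0.41. The 3 erythrocyte markers summed to 71945 CPM in SUM_2, the library with the most miR-10b, and to 8494 to 17631 CPM in the other SUM libraries. They summed to 19213 to 28993 CPM in FOV, the season with the lowest mean of miR-10b. In SAN they had 8031 to 14558 CPM and in SOV 6979 to 13446.5 CPM. Their part in the level of miR-10b was not tested. For miR-196b the nearest were the endothelial miR-126-3p (0.87), miR-143 of smooth muscle and stroma (0.86) and miR-28-5p (0.84), with 0.66 to 0.67 within seasons. For miR-615-3p they were miR-149 (0.78), miR-22 (0.76) and miR-423-3p (0.73), and without SAN_2 and SAN_3 the value for miR-22 was 0.91. Of these 3, miR-149 and miR-423-3p have a GC content of 60.9 and 65.2%, and miR-22 of 45.5%.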

How the data were processed

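FF-EV small RNA of 16 libraries was analysed. The deposited values are a signal, TMM-adjusted CPM, which the methods of the study describe as made by the authors in CLC Genomics Workbench 21 (trimming at a Q-score of 30, at most 2 ambiguous nucleotides and a length of at least 15) with annotation against miRBase 22. The submitters' processing notes name other tools, DESeq2, Bowtie2 2.2.2 and bcl2fastq, and it was not settled here which description applies. Divided by the worth of 1 read in its library, each value gave whole reads within a tolerance of 1e-06. The factors equalled TMM of edgeR over the 16 libraries. No genome coordinates are given, as none of the annotation used here places these miRNAs.

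Analysis used R 4.3.3, limma 3.58.1, edgeR 4.0.16, DESeq2 1.42.0, matplotlib 3.10.9 and Python 3.11.15. A miRNA entered the fit when any season had a mean over 10 CPM, which 282 did. Limma, with its trend option, modelled log2(CPM + 1) of 15 libraries in 4 seasons together, with two-sided p-values adjusted by Benjamini-Hochberg within each comparison. Fold changes of low miRNAs differ between scales. For miR-196a in SUM vs. SAN the log2 FC was -3.21 here, against -2.33 in edgeR and -2.70 in DESeq2. A pseudocount of 0.25 CPM gave -3.74. Calls required both a fold of 2 or more and an adjusted p under 0.05. The members, the relatives, the marker lists (erythrocyte, leukocyte, endothelial, mesenchymal, epithelial, granulosa, liver and brain) and the tests were chosen with earlier results of these data known. All members were named. Relatives named were miR-99a, miR-99b, miR-100 and the let-7 family, of which let-7i was not analysed here. For each member with a read in all 15 libraries, the 3 miRNAs above a mean of 100 CPM with the highest Pearson's r were named. Other miRNAs were chosen after their values were seen. The marker lists not described in the report summed over libraries of the fit to 121 to 819 CPM (leukocyte), 935 to 7506 CPM (epithelial) and 177 to 27279 CPM (brain). The liver list, miR-122 alone, had 602 to 14664 CPM.

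Alternatives covered the samples (FOV_1 kept, the compared seasons alone, each library left out), the values (pseudocounts of 5 and 0.25 CPM, a 100 CPM filter or no filter, equal totals or median-of-ratios scaling) and the model (robust moderation, a replicate block, no fold threshold, and DESeq2 or edgeR's quasi-likelihood test on the recovered reads). The fit was also run on simulated data, with changes set only in miRNAs with a mean above 100 CPM, so lower miRNAs were not covered. EV size, target prediction and pathways were not analysed here.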

Additional observations from a re-analysis of the deposited data

Results flagged for a closer look

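MiR-615-3p in SUM_3, at 1852 CPM, stood apart from the other SUM libraries, which had 636 to 823 CPM. Its gap to the next library, taken in CPM, was 0.847 of the range of the season. That is above Dixon's critical value of 0.829 for 4 libraries, which chance passes in about 1 of 20 groups, and 24 groups were tested. On log2(CPM + 1), the scale of the season tests, SUM_3 had 10.9, against 9.31 to 9.69 in the other SUM libraries. There the gap was a smaller part of the range and was not tested. SUM_3 was also the shallowest library, with 27131 reads and 52 reads of miR-615-3p.

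FOV_1 was left out of the comparisons and had reads of 5 members. Its values for miR-10b (35042 CPM, against 26538 to 30803 CPM in the other FOV libraries) and miR-196b (311 CPM, against 86.9 to 246 CPM) lay above the other FOV libraries, and that of miR-10a (17283 CPM, against 17878 to 33654 CPM) lay below them. MiR-615-3p had 146 CPM there, within the 67.9 to 1216 CPM of the others.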

How the results depend on the processing

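Over 35 results for the 5 members other than miR-615-5p, 965 alternatives were run: 916 left direction and call as they were, 24 reversed the sign of a value that was not called, 15 added a call and 10 removed one. The number of members called was 2 in SUM vs. SOV. MiR-10a was called besides these 2 with edgeR (adjusted p = 0.0398) and with the replicate block (limma adjusted p = 0.0333). The number became 1 under median-of-ratios scaling, robust moderation or the compared seasons alone, and 0 to 3 with single libraries left out (0 without SOV_1 or SUM_4). It was 0 elsewhere and became 1 in SOV vs. SAN with DESeq2, 1 in SUM vs. SAN with DESeq2 or a filter of 100 CPM (miR-196a, adjusted p = 0.0158 and 0.0468), 1 in FOV vs. SUM with FOV_1 kept, and in the F test 1 with FOV_1 kept or the 100 CPM filter and 2 with edgeR. With single libraries left out it was 0 to 1 in SOV vs. SAN and in the F test. The cause was not tested. Signs reversed for miR-10b in SOV vs. SAN under median-of-ratios scaling (0.11) and DESeq2 (0.11), and under equal totals for miR-615-3p in SUM vs. SAN (0.068) and, in FOV vs. SAN, for miR-10a (0.048) and miR-196a (0.030). With single libraries left out, log2 FCs ranged from -0.21 to 0.56 for miR-10a in SUM vs. SAN, -0.43 to 0.25 in FOV vs. SAN and -0.61 to 0.10 in FOV vs. SUM, from -0.92 to 0.71 for miR-615-3p in SUM vs. SAN, from -0.65 to 0.25 for miR-196a in FOV vs. SAN, and in FOV vs. SOV from -0.17 to 0.019 for miR-10b and -0.75 to 0.083 for miR-196b.

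The labels do not say what the library numbers mark, and the libraries were treated as unpaired. Over 21 pairs of libraries with the same number, deviations from the season means had a median correlation of 0.01, from -0.27 to 0.27. Such values cannot exclude a shared mare, day or batch. With the replicate block, miR-10a in SUM vs. SOV was called (limma adjusted p = 0.0333). No other call of a member changed with this block, and the F test over 282 miRNAs called 24 in place of 39.

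Counts of all 282 miRNAs called moved by over 1.5 times in SUM vs. SAN (27, against 16 with no filter, 44 with edgeR and 58 with DESeq2), FOV vs. SAN (2, against 0 with edgeR, 1 with FOV_1 kept, 4 with the 100 CPM filter, the compared seasons alone or robust moderation, and 12 with DESeq2), FOV vs. SOV (8, against 3 under median-of-ratios scaling, 13 with a pseudocount of 5 CPM and 22 with DESeq2), FOV vs. SUM (10, against 6 for the compared seasons alone and 17 with DESeq2) and the F test (39, against 68 with edgeR). In SOV vs. SAN it was 0, against 1 with DESeq2. With single libraries left out it was 0 to 5 in SOV vs. SAN (5 without SAN_1, 1 without SOV_4), 10 to 27 in SUM vs. SAN (10 without SUM_4, and 12 to 16 without any other library but FOV_4, SAN_1, SOV_4 or SUM_1), 0 to 6 in FOV vs. SAN (6 without FOV_4, 0 without FOV_2, SAN_2 or SAN_3), 32 to 57 in SUM vs. SOV (50 with all, 32 without SOV_1), 6 to 15 in FOV vs. SOV (15 without SOV_4), 4 to 19 in FOV vs. SUM (4 without FOV_3, 19 without FOV_4) and 20 to 50 in the F test (20 without SUM_4, 24 without SOV_1, 25 without SUM_2). Leaving out the most abundant miRNA of each library put the share of the miR-10 pair at 7.68% for SAN, 5.72% for SOV, 11.1% for SUM and 6.92% for FOV. Depth limits miR-196a, miR-196b and miR-615-5p most, with 1 read worth up to 35.6 CPM.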
